A study of Mus musculus with 4 samples.

Results

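The antigen presentation genes B2m (NM_009735), H2-K1 (NM_001001892), H2-D1 (NM_010380) and H2-Eb1 (NM_010382) were followed in skeletal muscle of Dmd Dup2 mice. They were matched by symbol in a deposited table of 1000 genes, where 4 of 4 were found with reads in all 4 libraries. The tissue was frozen tibialis anterior, a muscle of the lower leg, and both groups had the genotype Dmd Dup2, in which the dystrophin gene has exon 2 duplicated. The control group is labelled untreated, and the treated group was given scAAV9.U7-ACCA, an exon skipping vector built from an adeno-associated virus (AAV9) and a U7 small nuclear RNA. No wild-type muscle is among the samples used here, so both groups share the mutation. From each group there was 1 mRNA library and 1 library of ribosome footprints, the mRNA fragments that ribosomes protect from digestion. The labels give neither the number, age, sex nor strain background of the animals, nor whether muscles were pooled, and with 1 library per group no difference below has a replicate check.

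Class I molecules stand on the surface of most nucleated cells and show peptides from proteins made inside the cell to CD8 T lymphocytes. Each is a heavy chain, encoded in the mouse by genes such as H2-K1 and H2-D1, bound to beta-2-microglobulin, the small shared chain encoded by B2m. Class II molecules are pairs of an alpha and a beta chain that show peptides from engulfed material to CD4 T lymphocytes, chiefly on macrophages, dendritic cells and B lymphocytes; H2-Eb1 encodes a class II beta chain. Healthy muscle fibres carry little of either class, and inflamed or dystrophic muscle holds infiltrating cells that carry both.

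The promoters of these genes are known for short elements that bind interferon regulatory factors, nuclear factor kappa B and the CCAAT-binding factor NF-Y. The promoters of the 4 genes are shown first, and their part in the values below was not tested. The last 180 bases before each RefSeq start are given on the gene's own strand, 5′ to 3′, from RefSeq assembly GRCm38.p6. They lie at chr2:122147507-122147686 (plus strand) for B2m, chr17:34000348-34000527 (minus) for H2-K1, chr17:35262914-35263093 (plus) for H2-D1 and chr17:34305687-34305866 (plus) for H2-Eb1. Capitals mark matches to the 4 motifs searched.
B2m: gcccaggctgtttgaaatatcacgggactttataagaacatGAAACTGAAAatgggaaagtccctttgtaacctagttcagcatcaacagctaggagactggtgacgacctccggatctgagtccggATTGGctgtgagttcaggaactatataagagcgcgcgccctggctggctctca
H2-K1: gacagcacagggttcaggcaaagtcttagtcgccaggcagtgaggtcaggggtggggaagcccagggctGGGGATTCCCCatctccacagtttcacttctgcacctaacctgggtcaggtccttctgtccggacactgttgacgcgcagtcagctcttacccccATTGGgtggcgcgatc
H2-D1: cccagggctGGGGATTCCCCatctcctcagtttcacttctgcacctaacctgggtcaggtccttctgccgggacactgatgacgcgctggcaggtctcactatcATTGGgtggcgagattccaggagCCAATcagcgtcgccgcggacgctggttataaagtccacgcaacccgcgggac
H2-Eb1: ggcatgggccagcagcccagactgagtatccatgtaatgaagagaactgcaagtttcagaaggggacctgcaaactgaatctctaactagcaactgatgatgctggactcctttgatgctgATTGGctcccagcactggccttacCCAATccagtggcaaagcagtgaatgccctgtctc

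Motifs were searched on both strands of the 250 bases before the start. ATTGG, the core of the Y box that reads CCAAT on the other strand, was present in 4 of the 4 promoters and in 33.8% of all 32851 promoters in the RefSeq table. The kappa B core of the class I enhancer, the first stretch in capitals in both heavy chain promoters, was present in H2-K1 and H2-D1 and in 0.0304% of all promoters. The core of the interferon-stimulated response element matched in B2m alone among the members, read there as GAAACTGAAA, and occurred in 2.98% of all promoters. TGACGTCA, related to the X2 box, had 0 matches in the 4 promoters and occurred in 1.55% of all. None of these motifs overlapped another in the members. The table holds a further H2-K1 start 14 bases away, which was not used. A match describes the letters alone, and binding was not measured. Variants of the 4 patterns were not searched, so a promoter without a match may still hold an element of that kind.

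The listed genes held 125236 and 4248818 reads in the untreated and treated mRNA libraries and 3349015 and 1664122 in the untreated and treated footprint libraries. Levels below are CPM (reads scaled to a common library size by TMM), with exact Poisson 95% intervals, and treated to untreated ratios have 95% intervals that cover counting error only. A gene was called higher or lower in the treated library at a difference of at least 1.5-fold, an interval excluding 1 and at least 50 reads in the pair. The rows are ordered by the untreated mRNA count, which goes down to 14 reads, so a gene was listed through its level in that library. The floor of 14 reads is 89.3 scaled CPM. A gene close to it in untreated muscle and lower in treated muscle is listed, and the reverse case is not, so counts of genes lower in mRNA are no support for a shared direction. The footprint libraries come from the same untreated and treated groups, so footprint counts of genes listed in this way share the limit. Genes of muscle fibres matched the labelled tissue, since 14 of 15 fixed markers were listed, with Myh4 the most abundant in untreated mRNA.

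B2m was lower in treated muscle at both levels. Its mRNA was at 229.8 scaled CPM (161 to 318, from 36 reads) in the untreated library and 90.9 (81.0 to 102, from 307 reads) in the treated library, a 2.53-fold lower value (1.74 to 3.58). In footprints B2m stood at 1063 (1028 to 1098, from 3619 reads) untreated and 501 (468 to 537, from 825 reads) treated, 2.12-fold lower (1.96 to 2.29). The intervals of the mRNA and footprint folds overlapped, and the 2 libraries of each pair had intervals that did not overlap.

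H2-K1 and H2-D1, the classical heavy chains, were lower too. H2-K1 mRNA was 166 (108 to 243, from 26 reads) in the untreated and 98.9 (88.6 to 110.1, from 334 reads) in the treated library, 1.68-fold lower (1.08 to 2.50). The intervals of these single levels overlapped slightly, although that of the ratio excluded 1. H2-K1 footprints were 814 (784 to 845, from 2773 reads) untreated and 348 (320.4 to 378, from 573 reads) treated, 2.34-fold lower (2.14 to 2.56).

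H2-D1 followed the same course. Its mRNA was 179 (119 to 258, from 28 reads) untreated and 112 (101 to 124, from 379 reads) treated, 1.59-fold lower (1.04 to 2.34), again with overlapping intervals of the levels. Its footprints were 787 (758 to 818, from 2681 reads) untreated and 323 (296 to 352, from 532 reads) treated, 2.43-fold lower (2.22 to 2.68), with no overlap. H2-K1 and H2-D1 are close relatives, so how reads were divided between them is uncertain.

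H2-Eb1, the class II chain, had the largest mRNA difference of the 4 and the smallest footprint difference. Its mRNA was 204 (139.7 to 288, from 32 reads) in the untreated and 46.2 (39.2 to 54.0, from 156 reads) in the treated library, 4.42-fold lower (2.92 to 6.50). H2-Eb1 footprints were 338 (319 to 358, from 1151 reads) untreated and 182 (162 to 204, from 299 reads) treated, 1.86-fold lower (1.64 to 2.12). Both pairs of levels were separated by more than their counting intervals. The treated mRNA level of H2-Eb1 lies under the listing floor of 89.3 scaled CPM, so this gene was listed through the untreated library. With TMM the other 3 members lie above the floor in both, but the treated intervals of B2m and H2-K1 hold it. On the authors' scale the floor is 103.3, and treated B2m, H2-K1 and H2-D1 lie under it at 57, 62.1 and 70.4. The lower mRNA of these 3 members is therefore not free of the listing rule. In bulk muscle, fewer cells of a type and less RNA per cell cannot be told apart.

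**Figure D1:**
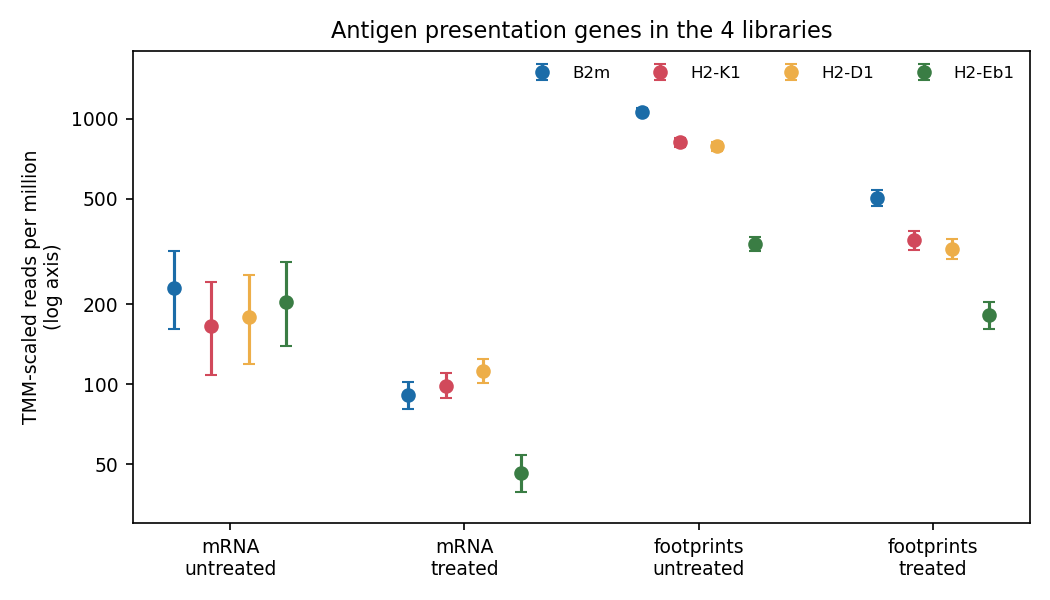
Levels of B2m, H2-K1, H2-D1 and H2-Eb1 in the 4 libraries, as TMM-scaled CPM on a log axis, with exact Poisson 95% intervals as bars (counting error only, 1 library per group). Each gene lies lower in the treated than in the untreated library of its kind, and H2-Eb1 differs most in mRNA, from 204 to 46.2.

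All 4 members were therefore called lower in mRNA, where 24.8% of the 996 genes compared were called lower, and all 4 were called lower in footprints, against 26.2% of 999 genes. None of the 4 was called higher, as 31.8% of genes were in mRNA and 19.9% in footprints. The direction held for each member under the 5 other library scalings tried. Size depended on the scaling, since with the authors' own library constants 54.5% of all genes were called lower in mRNA and 36.5% in footprints. On that scale the mRNA ratio of B2m was 0.215 in place of 0.396, that of H2-K1 0.323 in place of 0.596, that of H2-D1 0.341 in place of 0.628 and that of H2-Eb1 0.123 in place of 0.226. At a 2-fold threshold with TMM, 2 of 4 members, B2m and H2-Eb1, stayed called in mRNA.

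Differences from the median listed gene do not move with scaling. On this log2 scale the treated to untreated mRNA ratio relative to the median gene was −1.40 for B2m, −0.81 for H2-K1, −0.73 for H2-D1 and −2.20 for H2-Eb1. In footprints the same 4 genes lay at −1.06, −1.20, −1.26 and −0.87. The median of the 4 was −1.10 in mRNA and −1.13 in footprints, where the median over all genes is 0 by construction. Counted from the lowest ratio, H2-Eb1 was at place 56 and B2m at place 120 of 996 genes in mRNA, and H2-D1 was at place 85 of 999 in footprints.

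**Figure D2:**
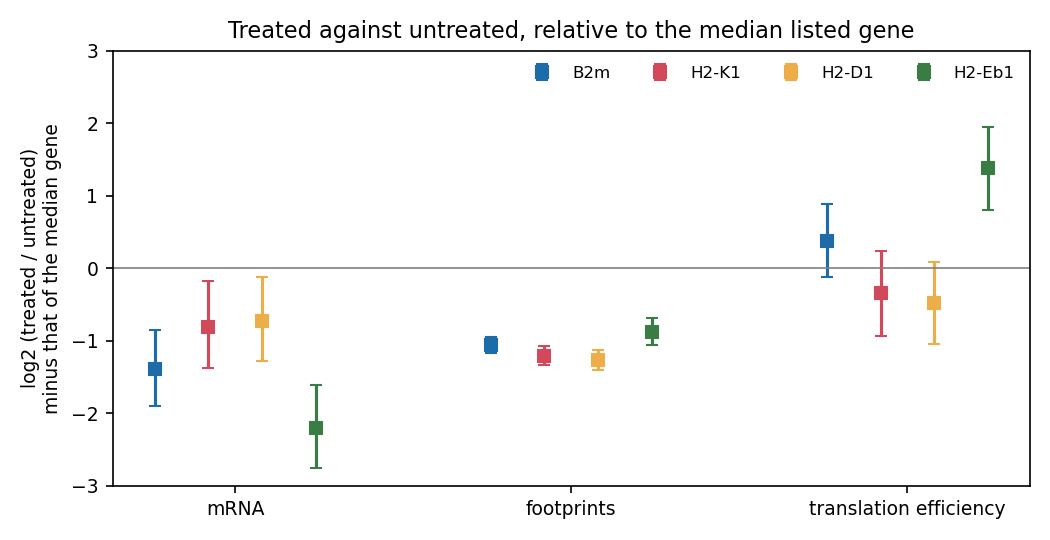
Log2 of the treated to untreated ratio minus that of the median listed gene, for mRNA, footprints and translation efficiency, with 95% intervals as bars (counting error only). The 4 genes lie close together in footprints, between −1.26 and −0.87, and apart in mRNA, between −2.20 and −0.73.

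The members were compared with each other as differences of log2 ratios, which are free of scaling. Of the 6 pairs, 3 had intervals excluding 0 in mRNA and 3 in footprints. In mRNA each of these pairs held H2-Eb1. Its ratio was lower than that of H2-D1, with an H2-D1 minus H2-Eb1 difference of 1.47 (0.69 to 2.24), than that of H2-K1, at 1.39 (0.60 to 2.18), and than that of B2m, at 0.81 (0.07 to 1.54). H2-K1 and H2-D1 differed by −0.08 (−0.87 to 0.71) in mRNA and 0.06 (−0.13 to 0.24) in footprints, intervals that hold 0 but in mRNA are wide. In footprints the order turned, and the H2-D1 minus H2-Eb1 difference was −0.39 (−0.62 to −0.16). B2m minus H2-D1 was 0.20 (0.03 to 0.37) there.

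Translation efficiency compares the change in footprints with that in mRNA (1 ratio over the other), and it split the members. H2-Eb1 had a treated to untreated efficiency ratio of 2.41 (1.62 to 3.59), called higher, as were 26.0% of 995 genes. H2-D1 was called lower at 0.666 (0.450 to 0.985), as were 31.9% of genes, but with the listed totals its ratio was 1.02 and with the authors' constants also 1.02, so neither its call nor its direction held. H2-K1 at 0.731 (0.487 to 1.10), with a ratio of 1.12 under both of those scalings, and B2m at 1.21 (0.850 to 1.72) were called neither way. H2-Eb1 stayed called higher under each of the 5 other scalings, at 2.47 to 3.69. That ratio rests on 32 untreated mRNA reads of a gene listed through the untreated library. A count that is high in that library raises the efficiency ratio, and a change of scaling does not address this. B2m was called higher as well under 3 of the 5, at 1.85 with the listed totals, 1.84 with the authors' constants and 1.54 (1.09 to 2.20) with totals that leave out the top 20 genes.

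Within each condition, the members held many footprints for their mRNA reads. Ribosome loading was taken as footprint reads over mRNA reads, relative to the same quotient of the median listed gene. In untreated muscle it was 4.56-fold above the median gene (3.29 to 6.32) for B2m, 4.82-fold (3.28 to 7.06) for H2-K1 and 4.33-fold (2.99 to 6.26) for H2-D1. These 3 stood at places 28, 23 and 31 from the highest of 1000 genes. H2-Eb1 was at 1.63-fold (1.15 to 2.31) and place 184.

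In treated muscle the order among them changed. B2m loading was 5.56-fold above the median gene (4.88 to 6.34), at place 12 of 1000. H2-Eb1 stood at 3.96-fold (3.27 to 4.81), at place 27, H2-K1 at 3.55-fold (3.10 to 4.06) and H2-D1 at 2.91-fold (2.55 to 3.32). The loading interval of H2-Eb1 in treated muscle lay wholly above that in untreated muscle, whereas those of B2m, H2-K1 and H2-D1 overlapped between conditions. The untreated loading of H2-Eb1 rests on the same 32 mRNA reads, through which it was listed, so this difference has the limit given for its efficiency. Transcript and coding lengths were not used here, and a gene with a long untranslated part has fewer footprints per mRNA read at the same ribosome density, so loading is not a density per codon.

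**Figure D3:**
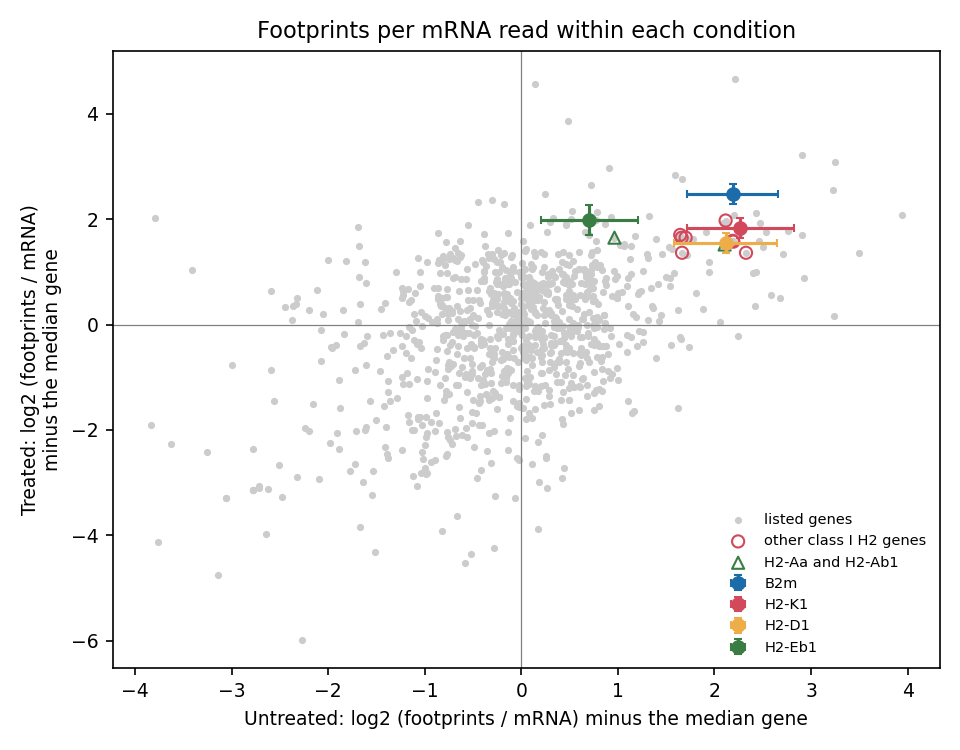
Footprint reads per mRNA read relative to the median listed gene, as log2, in untreated muscle (horizontal) and treated muscle (vertical), for all 1000 genes in grey and for B2m and the H2 genes in colour, with 95% counting intervals as bars for the 4 members. All 13 listed H2 genes and B2m lie above 0 on both axes, and H2-Eb1 is the lowest of the 4 members in untreated muscle at 0.71.

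A further 10 H2 genes were listed. This group was formed by symbol after the values were seen. All 10 were called lower in footprints, by 1.77-fold to 2.64-fold, where 26.2% of all genes were called lower, with a median of −1.21 relative to the median gene. In treated mRNA all 10 lay under the listing floor of 89.3 scaled CPM, so they were listed through the untreated library. Neither their mRNA counts nor their footprint count is read as a result, since the footprints come from the same untreated and treated groups. Their loading lay above the median gene in 10 of 10 in both conditions. Each of the 10 stayed called lower in footprints under the 5 other scalings, but a change of scaling does not address the listing rule.

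The 8 other class I heavy chain genes had footprints 2.22-fold to 2.64-fold lower in treated muscle. H2-T23, which encodes the nonclassical Qa-1 molecule, had 1067 footprint reads untreated and 210 treated, after scaling 2.45-fold lower (2.11 to 2.86), and its mRNA was 1.91-fold lower (1.05 to 3.25). H2-Q7, a gene of the Qa-2 group, had footprints 2.23-fold lower (1.96 to 2.55) and mRNA 2.24-fold lower (1.30 to 3.65). For H2-Gs10, whose RefSeq identifier now carries the symbol H2-Q4, footprints were 2.49-fold lower (2.22 to 2.80) while the mRNA ratio of 0.815 (0.493 to 1.45) was called neither way.

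Counts of these class I genes are not independent. H2-Q6 and H2-Q8 had the same 15 and 196 mRNA reads in untreated and treated muscle, and 1535 against 1542 and 285 against 282 footprint reads. H2-Q7 and H2-Q9 had 18 mRNA reads each in the untreated library and 173 against 180 in the treated one. The sources used here do not say how reads that map to several copies were counted, so these genes, H2-K1 and H2-D1 included, may not be separate measurements.

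Beside H2-Eb1 stand H2-Aa and H2-Ab1, which encode the alpha and beta chains of the other mouse class II molecule. H2-Ab1 went from 29 to 178 mRNA reads and from 1250 to 270 footprint reads, which after scaling is 3.51-fold lower (2.29 to 5.22) in mRNA and 2.24-fold lower (1.96 to 2.56) in footprints. Its translation efficiency ratio was 1.60 (1.06 to 2.41), called higher like that of H2-Eb1. Both genes lay under the listing floor in treated mRNA and were listed through the untreated library, so both efficiency ratios share that limit. H2-Aa went from 14 to 267 mRNA reads and from 1355 to 370 footprint reads, with an mRNA ratio of 0.885 and footprints 1.77-fold lower (1.58 to 1.99). The H2-Eb1 minus H2-Aa difference was −1.94 (−2.87 to −1.00) in mRNA and −0.07 (−0.32 to 0.18) in footprints. H2-Aa minus H2-Ab1 was 1.61 (0.66 to 2.56) in mRNA and 0.34 (0.09 to 0.59) in footprints. The 3 class II genes thus lay closer together in footprints than in mRNA, where H2-Aa had 14 untreated reads, at the listing floor.

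**Figure D4:**
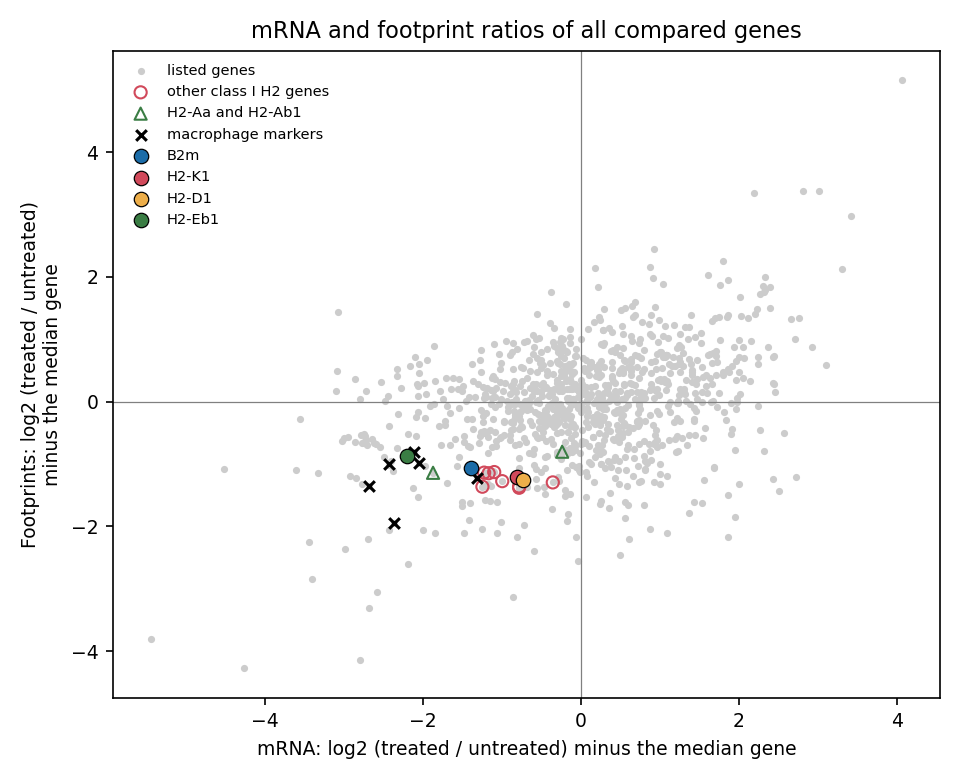
Treated to untreated log2 ratios in mRNA (horizontal) and footprints (vertical), each minus that of the median gene, for the compared genes in grey, B2m and the H2 genes in colour and macrophage markers as crosses. The H2 genes form a narrow band in footprints, from −1.38 to −0.80, and spread in mRNA from −2.20 to −0.24. H2-Eb1, H2-Ab1 and B2m lie within the mRNA range of the macrophage markers, −2.68 to −1.31, and H2-Aa lies outside it.

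Other genes of the class I pathway came from a fixed list of 26, of which 7 were listed under the symbols used. These were H2-Q1, H2-Q6, H2-Q7, H2-T23 and the peptide-loading chaperones Calr, Canx and Pdia3. The fixed list also held H2-Q4, which stands in the deposited table as H2-Gs10 and was not counted among the 7. Its mRNA was called neither way and its footprints were called lower, as given above. In mRNA 3 of 7 were called lower and 0 higher, and in footprints 6 of 7 lower and 0 higher. Over all genes 24.8% and 26.2% were called lower. The medians relative to the median gene were −0.78 and −1.13. In treated mRNA the 3 called lower, H2-Q1, H2-Q7 and H2-T23, lay under the listing floor, and so did H2-Q6. Neither the mRNA count nor the footprint count of this list is therefore read as a result. H2-Q1 was 2.05-fold lower (1.10 to 3.56) in mRNA and 2.22-fold lower (1.92 to 2.57) in footprints, and H2-Q6 footprints were 2.60-fold lower (2.29 to 2.96). The chaperones, which act on many secreted proteins besides class I, were called neither way in mRNA. Canx, the membrane lectin calnexin, had an mRNA ratio of 1.36 (0.898 to 2.16) and footprints 2.09-fold lower (1.80 to 2.43). Pdia3, a disulfide isomerase of the loading complex, was at 1.24 (0.731 to 2.29) in mRNA and 2.04-fold lower (1.75 to 2.38) in footprints. Calr, the soluble lectin calreticulin, was called neither way, at 0.935 (0.659 to 1.37) and 0.841 (0.775 to 0.913). The peptide transporter genes Tap1 and Tap2 and the immunoproteasome genes Psmb8 and Psmb9 are not among the listed genes and were not analysed here.

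Of a fixed list of 24 other class II genes, 7 were listed: H2-Aa, H2-Ab1 and the lysosomal proteases Ctss, Ctsb, Ctsd, Ctsl and Lgmn. In mRNA 2 of 7 were called lower and 0 higher, and in footprints 5 of 7 lower and 0 higher. The mRNA share was near the 24.8% of all genes called lower, and in footprints the share over all genes was 26.2%. The medians relative to the median gene were −0.51 and −1.06. In treated mRNA the 2 called lower, H2-Ab1 and Ctss, lay under the listing floor, and so did H2-Aa. The mRNA and footprint counts of this list are therefore given as a description and not read as a result. Ctss, which trims the invariant chain from class II molecules, was 4.96-fold lower (3.42 to 7.02) in mRNA and 3.90-fold lower (3.25 to 4.71) in footprints. Lgmn, an asparagine-specific protease, had an mRNA ratio of 0.733 (0.467 to 1.22) and footprints 2.21-fold lower (1.93 to 2.54). Ctsb, a cysteine protease, was at 1.29 (0.939 to 1.83) in mRNA and 2.12-fold lower (1.98 to 2.27) in footprints. Ctsd, an aspartic protease, was called neither way, with a footprint ratio of 1.00 (0.943 to 1.06), and so was Ctsl at 1.39 (1.27 to 1.52). Cd74, the invariant chain gene, is not among the listed genes. Of 29 interferon response genes in a fixed list, 0 were listed, so this response was not assessed.

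The genes whose profile over the 4 libraries was most like each member were ranked by the root mean square difference of centred log2 values, among 994 genes. Nearest to H2-Eb1 were the lysozyme genes Lyz2, at 0.0406, and Lyz1, at 0.102, followed by Eno1, a glycolytic enzyme gene, at 0.105. Lyz2 went from 61 to 318 mRNA reads and from 2189 to 593 footprint reads, and its copy Lyz1 can share its reads. H2-D1 lay nearest to H2-Q6 (0.0523), H2-Q8 (0.0562) and H2-K1 (0.116). H2-K1 lay nearest to H2-Q6 (0.0932), H2-Q8 (0.0996) and Actn1 (0.111), which encodes an actin crosslinker of nonmuscle cells. B2m lay nearest to H2-Bl (0.182), H2-K1 (0.256) and Gm8909 (0.271). With 4 libraries such a ranking is a description of these profiles.

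The listed markers of macrophages, which carry class II molecules, were also lower in treated muscle. Of 27 macrophage markers 6 were listed (Lyz2, Lyz1, Ctss, C1qa, C1qb and Lcp1). All 6 were called lower in mRNA and in footprints, where 24.8% and 26.2% of all genes were. In treated mRNA each of them but Lyz2 lay under the listing floor of 89.3 scaled CPM, so these were listed through the untreated library. The counts and sums of the markers, in mRNA and in footprints, are therefore given as a description and not read as a result. The summed level of the markers was 1423 scaled CPM in untreated and 332 in treated mRNA, 4.29-fold lower (3.70 to 4.96). That interval holds the 4.42-fold of H2-Eb1 and lies above the 2.53-fold of B2m, 1.68-fold of H2-K1 and 1.59-fold of H2-D1. It also lies above the values of the other class II genes, H2-Ab1 at 3.51-fold and H2-Aa at 1.13-fold. The interval of H2-Ab1, 2.29 to 5.22, covers that of the sum, so these 2 are not separated. Lyz2 and Lyz1 can share reads, so the counting interval of the sum may be too narrow. Single markers ranged from 2.38-fold to 6.16-fold lower in mRNA, a range that holds H2-Eb1, H2-Ab1 and B2m. In footprints the sum went from 1963 to 914, 2.15-fold lower (2.03 to 2.27), while the 4 members ranged from 1.86-fold to 2.43-fold lower. Other defining macrophage genes such as Cd68, Csf1r and Adgre1 are not among the listed genes. The same holds for all 7 dendritic cell, all 7 B lymphocyte and all 11 T and NK lymphocyte markers, so these cells could not be followed.

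Of 10 fibroblast markers 7 were listed, of which 4 were called lower and 2 higher in mRNA, and 6 lower and 0 higher in footprints. Over all genes 24.8% were called lower and 31.8% higher in mRNA, and 26.2% and 19.9% in footprints. Their sum was 4.68-fold lower (4.49 to 4.88) in mRNA and 4.67-fold lower (4.57 to 4.78) in footprints. Collagen genes lead this sum, with 1089 (Col3a1), 888 (Col1a1) and 500 (Col1a2) of 2716 untreated mRNA reads. In mRNA Dcn was 3.02-fold and Fbn1 2.81-fold higher, and Lum, at 1.16, was called neither way. Summed muscle fibre markers had a ratio of 1.22 in mRNA and 1.02 in footprints. Of 14 endothelial markers 1 was listed, Fabp4, whose mRNA ratio was 1.18 (0.707 to 2.13) and whose footprints were 4.34-fold higher (3.55 to 5.34). The part of these cell types in the lower values of the 4 members was not tested.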

How the data were processed

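Muscle was lysed in buffer with cycloheximide, which holds ribosomes in place; mRNA libraries were stranded and made from total RNA, and footprint libraries used a kit for small RNA, per the labels' protocols. The authors deposited 1 table of 1000 genes with a read count per gene and library. It also gives normalized read counts, each a fixed multiple of the count within a library (all genes within 0.1). The authors' values were read as CPM of library totals larger than the listed reads, a scale inferred from the values. The submitters' processing notes name Trimmomatic, STAR, edgeR and mm9 but no version or role; for counting, strand and reads with several loci, no setting is stated in the sources used here.

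Counts were scaled with TMM (edgeR 4.0.16, R 4.3.3) over the listed genes. Ratios have exact conditional binomial 95% intervals. For translation efficiency and loading, 0.5 was added to each count and intervals were normal on a log scale. Because each group has 1 library, no spread between samples could be estimated, so the values carry no test or p-value. Reads carry no molecular identifiers, so intervals cover counting error only. The call rule and scripts were tested on simulated data.

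The members, gene lists and motifs were chosen with earlier results of these data known. Named genes are the members, every listed gene of the fixed class I, class II and interferon lists, 2 of a proteasome and ubiquitin list (the lowest in mRNA; the highest are not reported here) and the 3 nearest profiles per member; the further H2 genes, the promoter windows printed and the examples among markers were chosen after values were seen. A planned comparison of the member proteins was not made. Alternatives were DESeq2 1.42.0 size factors, listed totals, the upper quartile, totals without the 20 most abundant genes, the authors' constants, 5 added to each count, no minimum or 200 reads, and a 2-fold threshold. RefSeq identifiers were matched to assembly GRCm38.p6 for 996 of 1000 genes, for names alone; all 4 members were found in its promoter table.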

Additional observations from a re-analysis of the deposited data

How the results depend on the processing

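The untreated mRNA library, with 26 to 36 reads per member, set the precision of mRNA and efficiency ratios, and no library could be left out since each group had 1. No paired analysis was possible because each group holds 1 library. All 4 members were called lower in mRNA and in footprints under each of the 5 other scalings. At a 2-fold threshold 2 were called lower in mRNA and 3 in footprints. With the listed totals the mRNA ratios were 0.251 for B2m, 0.379 for H2-K1, 0.399 for H2-D1 and 0.144 for H2-Eb1, and with the authors' constants 0.215, 0.323, 0.341 and 0.123. Footprint ratios with the authors' constants were 0.391, 0.354, 0.340 and 0.445 in the same order, and B2m stood at 0.435 with the upper quartile. Efficiency ratios with the listed totals were 1.85 for B2m, 1.12 for H2-K1, 1.02 for H2-D1 and 3.69 for H2-Eb1, and with the authors' constants 1.84, 1.12, 1.02 and 3.68, so H2-K1 and H2-D1 turned direction. Members called in efficiency went from 2 to 1 with DESeq2 size factors, the upper quartile, 200 reads or a 2-fold threshold. A scaling shifts all genes at once: the median mRNA log2 ratio was 0.06 with TMM, 0.04 with DESeq2 size factors, −0.60 with listed totals, −0.34 by upper quartile, −0.22 by totals lacking the top 20 genes and −0.82 by the authors' constants. In that order, genes called higher made up 56.2%, 55.6%, 24.2%, 35.7%, 42.2% and 16.8% of the called genes in mRNA, 43.2%, 45.0%, 39.96%, 34.5%, 50.4% and 23.8% in footprints and 45.0%, 47.0%, 73.9%, 59.97%, 62.7% and 73.8% in efficiency. Of 98 recomputed values, 72 stayed within the main interval or, for counts, within 1.5 times the main count, as did 3 members called lower in mRNA at a minimum of 200 reads.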

Other observations

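Peptides for class I molecules are made by the proteasome from ubiquitin-tagged proteins, and genes of this machinery were followed as well. Of a fixed list of 35 core proteasome and ubiquitin genes, 24 were listed, of which 3 were called lower and 7 higher in mRNA, and 1 lower and 7 higher in footprints. Over all genes 24.8% were called lower and 31.8% higher in mRNA, and 26.2% lower and 19.9% higher in footprints, so the share called higher in mRNA was near that of all genes. Their medians relative to the median listed gene were 0.11 in mRNA and 0.47 in footprints. Psma5 and Psmb1, subunits of the core particle, were 2.49-fold (1.56 to 3.80) and 1.78-fold (1.23 to 2.52) lower in mRNA. Their footprint ratios were 0.812 (0.655 to 1.00) and 1.08 (0.938 to 1.24), called neither way. Psma5 stood at 61.6 scaled CPM in treated mRNA, under the listing floor of 89.3.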
